A study of Oryza sativa with 6 samples.

Results

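FLO2, FLO4 and FLO6 are 3 rice genes that take their names from mutants with a floury endosperm, in which the grain is opaque and chalky because starch is loosely packed. They were chosen by their locus IDs, LOC_Os04g55230 for FLO2 on chromosome 4, LOC_Os05g33570 for FLO4 on chromosome 5 and LOC_Os03g48170 for FLO6 on chromosome 3, and are 3 of the 55986 rows in the table. Messenger RNA was sequenced from rice grains at the mature period, in 3 libraries of the wild type line Zhenong 34, labelled as the control, and 3 libraries of a mutant named sg34, with no other treatment given for either line. The labels name neither the mutated gene nor its allele, and whether the libraries of a line are separate plants is not said, so every p-value rests on a library-to-library spread that may be technical.

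The starchy endosperm of a cereal grain fills with starch and storage protein, and each of the 3 genes acts at a different step. FLO2 encodes a protein with tetratricopeptide repeats, and rice plants that lack it have smaller grains and lower transcript levels of many starch and storage protein genes. FLO4 is the pyruvate, phosphate dikinase gene PPDKB; its enzyme interconverts pyruvate and phosphoenolpyruvate, and so links glycolysis with the supply of carbon and phosphate compounds during grain filling. FLO6 encodes a plastid protein with a carbohydrate-binding module that binds starch and the debranching enzyme isoamylase 1, and it is needed for normal starch granules. The deposited annotation describes FLO2 as a clustered mitochondria protein whose nearest Arabidopsis entry is protein TSS, FLO4 as chloroplastic OsPPDKB, and FLO6 by the protein entry FLOURY ENDOSPERM 6. The 3 products share no annotated domain: tetratricopeptide repeats for FLO2, phosphoenolpyruvate-binding domains for FLO4, and the carbohydrate-binding module 48 for FLO6. The rice FLO4 gene is known to give rise to a plastid and a cytosolic form, and the table has 1 row per gene, so these forms cannot be told apart.

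Values are TPM, a relative transcript abundance corrected for transcript length. The TPM of a library summed to between 967528 and 991476; sequencing depth cannot be read from it. One library, wild type replicate 1, differed from the others. Summed over 4 starchy endosperm marker genes its share of TPM was 2.53%, against 6.98% to 9.96% in the other libraries. The low sum lay in the storage protein markers GluA1 (4333 TPM, against 28725 to 52722), GluB4 (169.2, against 2827 to 7397) and Glb (17225, against 25346 to 42827). As deposited, the starch marker GBSSI, at 2790 TPM, lay between the other wild type libraries. The starch genes AGPL2 (4118 TPM, against 1314 to 2442) and BEIIb (3536, against 1491 to 2261) were highest there, also as deposited. Embryo and oil body markers took 0.104% of its TPM, against 0.289% to 0.542%, and all 3 were lowest there. Green pericarp markers took 0.0149%, against 0.000734% to 0.00866%, with RBCS2 and PsbO highest there and CAB1R and CAB2R highest in mutant replicate 2; 0 of these 11 markers was at 0 in any library. Scaled TPM are TPM divided by a factor per library, from 0.702 in mutant replicate 1 to 1.66 in wild type replicate 1, estimated from the bulk of genes by a trimmed mean. On scaled TPM AGPL2 (2668) and BEIIb (2662) were highest in wild type replicate 2, with 2480 and 2130 in wild type replicate 1. Scaled GBSSI was lowest in wild type replicate 1, at 1680. The median log2 difference between the lines over all 16917 tested rows was -0.43 without this scaling and -0.01 with it. In bulk tissue, fewer cells of a type and less RNA per cell cannot be told apart.

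The 3 genes were transcribed at very different levels, and the order FLO4, FLO2, FLO6 held in each of the 6 libraries. FLO4 was among the most abundant transcripts of the grain, FLO2 was well above most genes and FLO6 was low. The lowest FLO4 value, 1100 TPM, lay above the highest FLO2 value, 174.4 TPM, and the lowest FLO2 value, 117.2 TPM, lay above the highest FLO6 value, 10.4 TPM. Counted from the highest level, FLO4 ranked between 9 and 63 of the 16917 tested rows in a library, FLO2 between 288 and 1217, and FLO6 between 8467 and 13358.

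Each mutant library held more FLO2 transcript than the highest wild type one, but the difference did not pass the test. Wild type replicates 1 to 3 held 117.3, 117.2 and 127.0 TPM, and mutant replicates 1 to 3 held 145.7, 141.9 and 174.4 TPM. The groups did not overlap, whether the TPM were taken as deposited or scaled. On the deposited scale FLO2 went from 120.5 ± 5.62 to 154.0 ± 17.8 TPM, and on the scaled one from 104.1 ± 33.6 to 184.8 ± 21.9 TPM (SD, n = 3 per line). The log2 difference of scaled TPM, mutant minus wild type, was 0.87 ± 0.29 (SE), with a 95% interval from 0.17 to 1.56 and limma adjusted p = 0.199 over all tested rows. Of all tested rows 3.76% passed at an adjusted p under 0.05, 1.89% as higher and 1.87% as lower in the mutant, and 17.3% had an unadjusted p under 0.05. Scaled groups did not overlap in 23.6% of rows, with the mutant above in 10.9% and below in 12.7%. On deposited TPM this share was not counted. Without wild type replicate 1 the log2 difference was 0.63 (limma adjusted p = 0.255), and with TPM not rescaled it was 0.35 (0.503). With limma's library weights, which count less consistent libraries less, FLO2 passed as higher in the mutant, with a log2 difference of 0.79 and limma adjusted p = 0.0159 (range over 15 alternatives 0.0159 to 0.518); this setting called 2137 rows higher and 1779 lower.

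As deposited, FLO4 had its highest level by far in 1 wild type library, and the lines overlapped. Wild type replicates 1 to 3 held 6264, 2590 and 2206 TPM, and mutant replicates 1 to 3 held 1100, 1789 and 2396 TPM. Mutant replicate 3 was above wild type replicate 3, and mutant replicate 1 was lowest. On scaled TPM wild type replicate 1 was still highest, at 3773, with 3048 in wild type replicate 2. On the deposited scale wild type grains averaged 3687 ± 2240 TPM and mutant grains 1762 ± 648.5 TPM, and on the scaled one 2875 ± 996.1 and 2042 ± 412.3 TPM (SD, n = 3 per line). The log2 difference of scaled TPM was -0.45 ± 0.47 (SE), with a 95% interval from -1.57 to 0.67 and limma adjusted p = 0.639. Without wild type replicate 1, the library with low storage protein markers, it was -0.21 (limma adjusted p = 0.836), and with library weights it was 0.10 (0.828); the part of these marker shifts in the FLO4 values was not tested. With TPM not rescaled the log2 difference was -0.97 (limma adjusted p = 0.384, the lowest over 15 alternatives, which reached 0.907).

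FLO6 was low in both lines, and its log2 difference was smaller than its standard error. Wild type replicates 1 to 3 held 10.4, 2.62 and 4.82 TPM, and mutant replicates 1 to 3 held 1.59, 3.48 and 5.53 TPM. As for FLO4, wild type replicate 1 was highest and mutant replicate 1 lowest, and the other 4 libraries interleaved. Scaled TPM were 4.43 ± 1.64 in the wild type and 3.98 ± 1.53 in the mutant (SD, n = 3 per line). The log2 difference was -0.13 ± 0.33 (SE), with a 95% interval from -0.91 to 0.64 and limma adjusted p = 0.852. Its sign depended on single libraries: it was 0.10 without wild type replicate 1 and 0.15 without mutant replicate 1. With TPM not rescaled it was -0.55 (limma adjusted p = 0.497, the lowest over 14 alternatives, which reached 0.905).

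**Figure D1:**
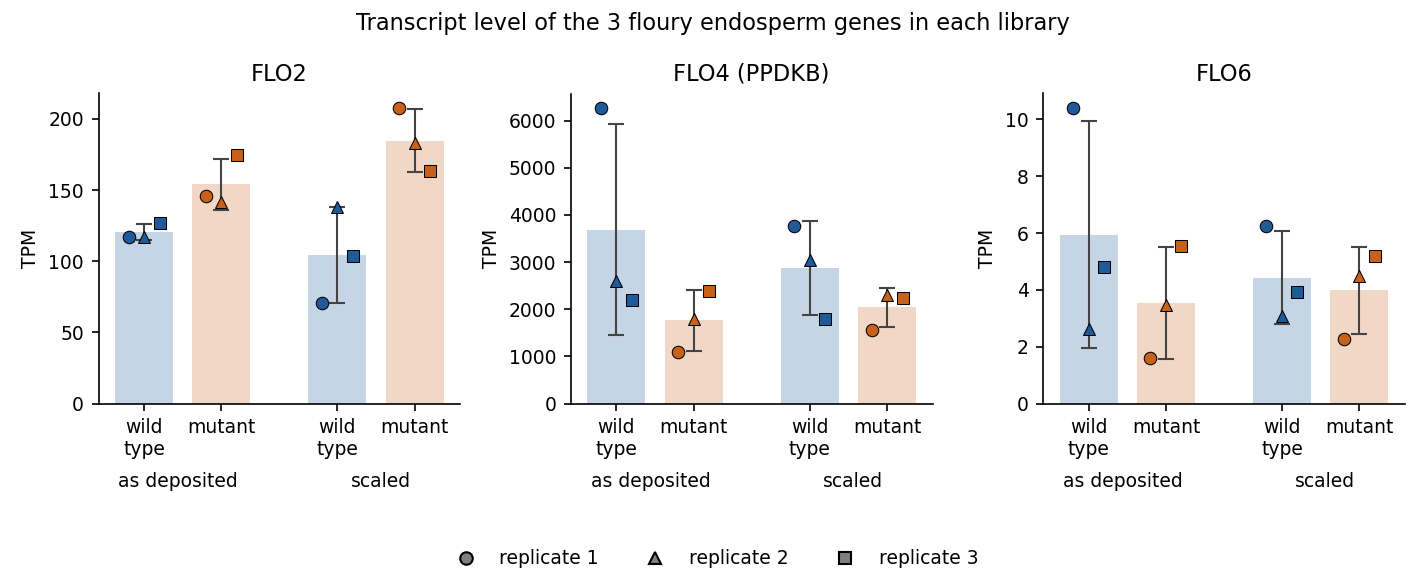
TPM of FLO2, FLO4 and FLO6 (y axes, linear, each with its own range) in the wild type (blue) and the mutant (orange), as deposited and scaled; symbols are replicates, bars are means and whiskers are SD over 3 libraries. The mutant values of FLO2, from 141.9 to 174.4 TPM as deposited, lie above all wild type values, while FLO4 and FLO6 overlap and are highest in wild type replicate 1.

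The spread within a line also differed between the genes. As deposited, the coefficient of variation of FLO2 was 4.66% in the wild type and 11.6% in the mutant, against 60.8% and 36.8% for FLO4 and 67.4% and 55.8% for FLO6 (n = 3 per line). After scaling the wild type values were 32.3% for FLO2, 34.6% for FLO4 and 37.1% for FLO6. Scaling thus widened the spread of FLO2 within the wild type and narrowed that of FLO4 and FLO6. The log2 differences under each processing choice kept their sign for FLO2 in 15 of 15 alternatives and turned for FLO4 in 1 of 15 and for FLO6 in 3 of 14.

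**Figure D2:**
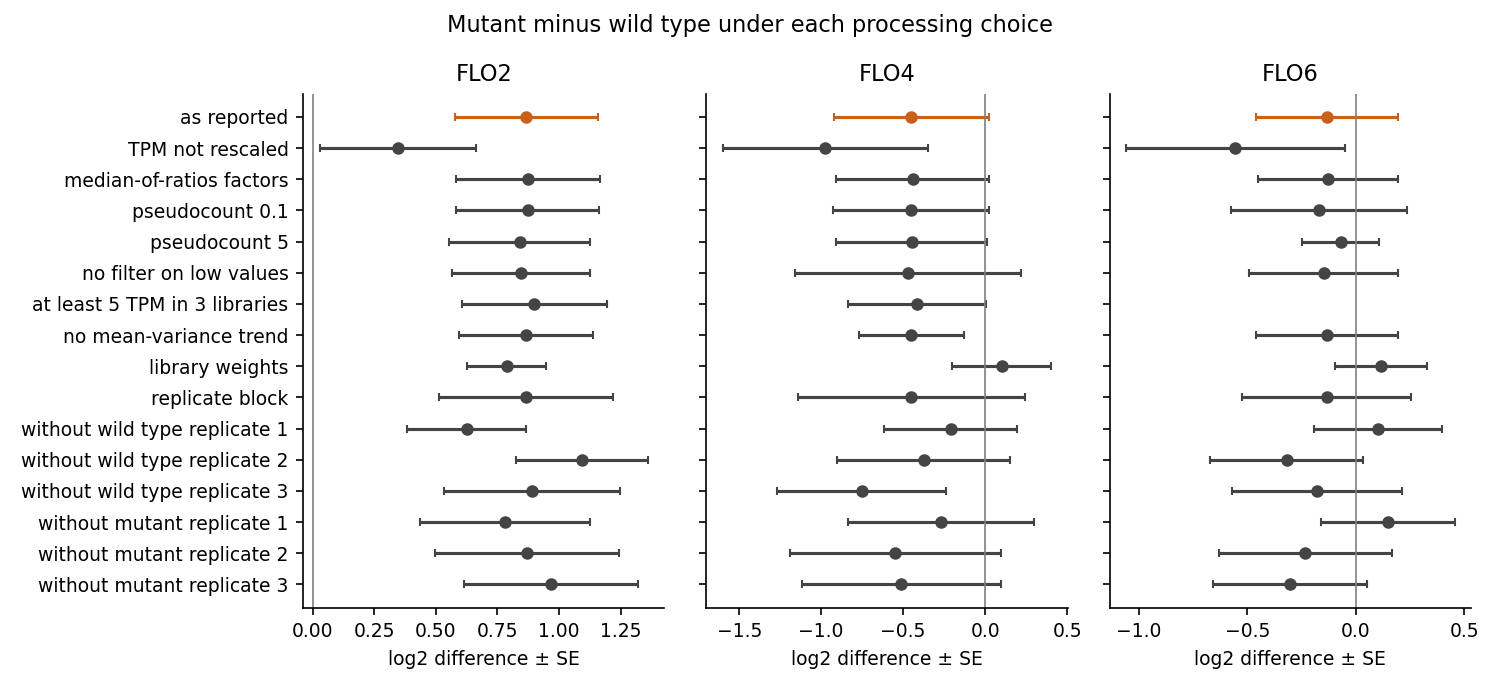
Log2 differences, mutant minus wild type (x axes), of FLO2, FLO4 and FLO6 under each processing choice (y axis); points are fitted values, whiskers are SE, and orange marks the values as reported. FLO2 lies between 0.35 and 1.09 under every choice, FLO4 between -0.97 and 0.10 and FLO6 between -0.55 and 0.15; FLO6 has no value with the filter at 5 TPM.

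Ratios between the genes within a library do not depend on scaling between libraries. The FLO4 to FLO2 ratio stood at 53.4, 22.1 and 17.4 in replicates 1 to 3 of the wild type and at 7.55, 12.6 and 13.7 in those of the mutant. All 3 mutant ratios lay below the lowest wild type ratio. On the scale of log2(TPM + 1), used for all 3 ratios, the difference was -1.32, with a two-sided exact permutation p = 0.1, the smallest that 3 against 3 libraries allow, or 0.3 after Benjamini-Hochberg adjustment over 3 ratios. Without wild type replicate 1 the difference was -0.84, and in each of the 6 fits that left out a library it stayed below 0. The other ratios overlapped between the lines. FLO4 to FLO6 ran from 457.7 to 988.4 in the wild type and from 433.4 to 692.0 in the mutant, and FLO2 to FLO6 from 11.3 to 44.7 and from 31.5 to 91.6. On the log2(TPM + 1) scale their differences of -0.42 and 0.90 each had a two-sided exact permutation p = 0.3. The added 1 weighs on the low FLO6: with 0.1 added the FLO4 to FLO6 difference was -0.29 (exact permutation p = 0.6) and with 5 added -0.65 (0.2). Single libraries moved both: FLO4 to FLO6 was -0.20 without wild type replicate 2 and -0.66 without wild type replicate 3, and FLO2 to FLO6 was 0.44 without wild type replicate 1 and 0.58 without mutant replicate 1.

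**Figure D3:**
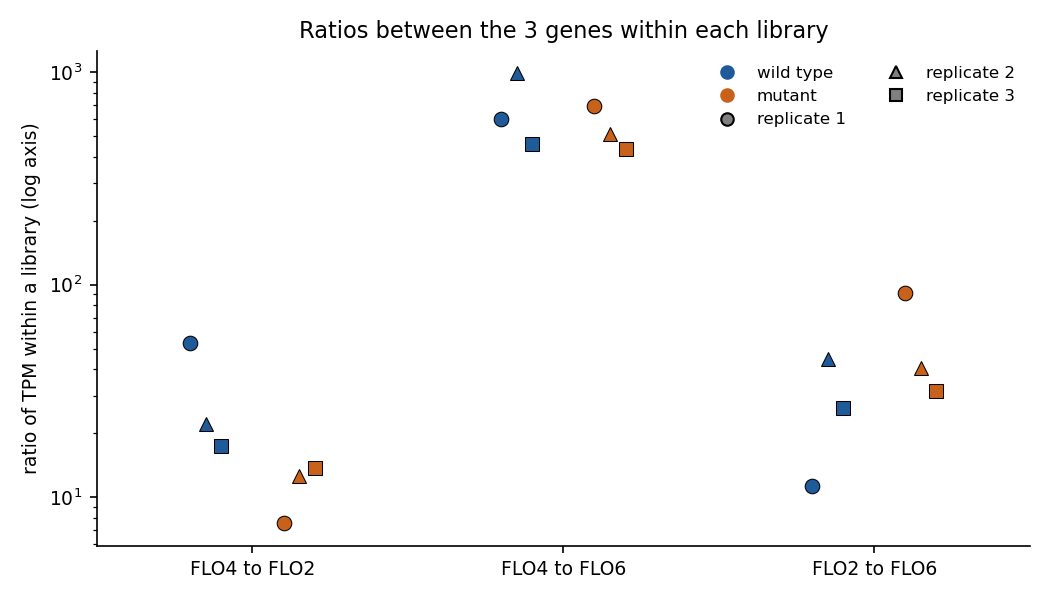
Ratios of TPM between the 3 genes within each library (y axis, log scale) for the wild type (blue) and the mutant (orange); symbols are replicates. The FLO4 to FLO2 ratios of the mutant, 7.55 to 13.7, lie below those of the wild type, 17.4 to 53.4, and the other ratios overlap.

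Close relatives of the members were taken from the deposited descriptions. Besides FLO2, 3 rows are described as clustered mitochondria proteins. Of these, 1 of the 2 tested rose in the mutant, where 1.89% of all tested rows did. The copy LOC_Os02g15660, whose nearest Arabidopsis entry is protein TSS as for FLO2, stood at 0.56, 0.32 and 0.64 TPM in replicates 1 to 3 of the wild type and at 2.51, 2.16 and 3.11 TPM in those of the mutant. Its log2 difference was 1.53 ± 0.17 (SE) with limma adjusted p = 0.00365 (0.0102 without wild type replicate 1; range over 14 alternatives 0.000603 to 0.0630), and it stayed at a low level next to FLO2. It passed the filter on low values only through the mutant, so it had to differ to be tested. LOC_Os02g48620 matches the Arabidopsis gene FMT for mitochondrial distribution. As deposited it averaged 26.0 ± 16.9 TPM in wild type and 17.6 ± 8.87 TPM in mutant grains (SD, n = 3). On scaled TPM, which the test used, it averaged 19.4 and 19.9. The log2 difference there was 0.05 ± 0.33 (SE), with limma adjusted p = 0.948. LOC_Os07g23990 was not tested, at 0.39 to 0.83 TPM. Reads shared between the copies were not measured, so the value of the low copy is uncertain.

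The second dikinase gene of rice, PPDKA (LOC_Os03g31750), was a minor partner of FLO4 in each library. FLO4 made up 98.5% to 99.99% of the TPM of both genes together, and 0.111% to 0.648% of all TPM. PPDKA stood at 0.35, 7.47 and 15.9 TPM in replicates 1 to 3 of the wild type and at 16.2, 18.3 and 4.40 TPM in those of the mutant. It was lowest in the library where FLO4 was highest. Between the lines it differed by 1.40 ± 1.04 (SE, log2 scale; limma adjusted p = 0.507), or by 0.32 without wild type replicate 1. The dikinase regulatory protein gene LOC_Os07g34640, whose product switches the plastid enzyme on and off, had 1.63 ± 1.65 and 1.34 ± 0.40 TPM (SD, n = 3; limma adjusted p = 0.740).

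FLO4 was then set beside the enzymes and regulators that act on pyruvate and phosphoenolpyruvate, 36 rows by description, of which 30 were tested. In the mutant 2 fell and 0 rose, where 1.87% and 1.89% of all tested rows did so. Log2 differences were above 0 for 19 and below 0 for 11. Their median was 0.25, or 0.18 without wild type replicate 1 and -0.18 with TPM not rescaled. All tested rows had a median of -0.01, or -0.43 with TPM not rescaled. The phosphoenolpyruvate carboxylase gene LOC_Os01g55350, whose product adds bicarbonate to phosphoenolpyruvate to form oxaloacetate, stood at 13.5, 6.16 and 9.84 TPM in replicates 1 to 3 of the wild type and at 0.58, 0.98 and 1.22 TPM in those of the mutant. The groups were far apart, and its transcript fell by 2.09 ± 0.17 (log2 scale, SE; limma adjusted p = 0.00101), the 1 pyruvate gene that passed in all 15 alternatives as well. It passed the filter on low values through the wild type, which was high. A row as low in both lines as this gene was in the mutant would not have been tested. The alternatives reuse the same libraries, so passing in all of them is not separate support.

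The phosphoenolpyruvate carboxylase kinase gene LOC_Os02g56310, whose product activates that carboxylase by phosphorylation, stood at 43.5, 10.96 and 14.0 TPM in replicates 1 to 3 of the wild type and at 3.07, 3.46 and 5.28 TPM in those of the mutant. It fell by 1.58 ± 0.31 (log2 scale, SE; limma adjusted p = 0.0449), and this call was lost in 10 of 15 alternatives, among them 5 of the 6 that left out a library (adjusted p from 0.0635 to 0.190). Without wild type replicate 1 it fell by 1.21 on the same scale (limma adjusted p = 0.0135). The phosphoenolpyruvate carboxykinase gene LOC_Os03g15050, for the enzyme that forms phosphoenolpyruvate from oxaloacetate, ranged from 8.38 to 11.4 TPM in wild type and from 21.6 to 30.9 TPM in mutant grains, with no overlap. Its log2 difference was 1.84 ± 0.39 (SE) with limma adjusted p = 0.0591; it passed when wild type replicate 2 was left out (0.0362; range over 15 alternatives 0.00239 to 0.243). The malic enzyme gene LOC_Os01g52500 (log2 difference 0.83) and PEPKR2 (LOC_Os09g29170, a protein kinase related to the carboxylase kinases; 0.77) came next, with limma adjusted p of 0.198 and 0.201.

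**Figure D4:**
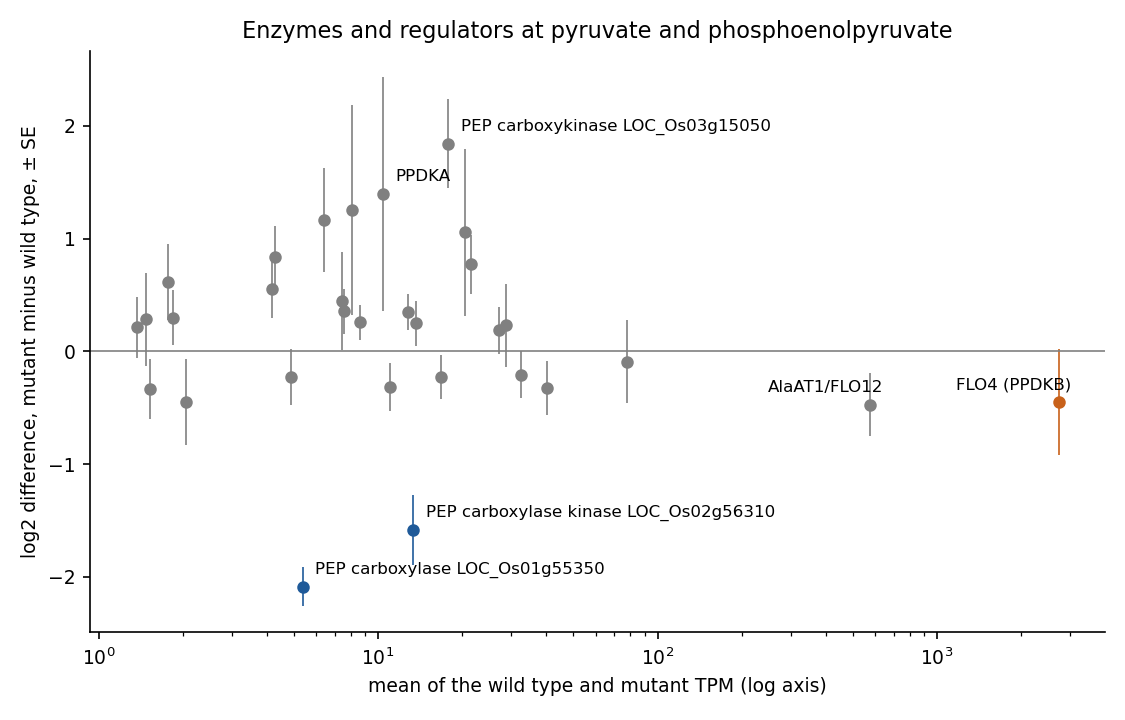
Log2 difference, mutant minus wild type (y axis), against the mean TPM of the lines (x axis, log scale) for FLO4 (orange) and the 30 tested pyruvate and phosphoenolpyruvate genes; blue points passed the test, grey ones did not, and whiskers are SE. FLO4 stands at the far right at -0.45, and the 2 genes that fell, at -2.09 and -1.58, are at low levels.

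FLO6 was set beside its partner and its carbohydrate-binding relatives. The isoamylase 1 gene ISA1 (LOC_Os08g40930), for the debranching enzyme that FLO6 binds, stood at 1021, 477.1 and 435.9 TPM in replicates 1 to 3 of the wild type and at 454.3, 474.8 and 642.1 TPM in those of the mutant. As deposited it was highest in wild type replicate 1, as FLO6 was; on scaled TPM ISA1 was highest in mutant replicate 1 (647.2, against 614.6 in wild type replicate 1) and FLO6 still in wild type replicate 1. ISA1 stood far above FLO6 in each library. Its log2 difference was 0.32 ± 0.31 (SE), with a 95% interval from -0.43 to 1.06 and limma adjusted p = 0.618, and it was 0.08 without wild type replicate 3 and -0.21 with TPM not rescaled. The gene GBP (LOC_Os02g04330), a relative of the Arabidopsis starch-binding protein PTST, averaged 158.2 ± 37.2 TPM in wild type and 93.9 ± 10.5 TPM in mutant grains (SD, n = 3). Its deposited values did not overlap, with all 3 mutant libraries lower and a log2 difference of -0.73 with TPM not rescaled (limma adjusted p = 0.328). Its scaled values overlapped, at -0.21 ± 0.29 (log2 difference, SE; limma adjusted p = 0.727).

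Rows described as beta subunits of the SnRK1 kinase were also set beside FLO6. Of the 3 tested 0 passed, where 3.76% of all tested rows did. LOC_Os03g20340, LOC_Os05g41220 and LOC_Os07g48790 are annotated with a related carbohydrate-binding module, while LOC_Os09g20010 is not. LOC_Os05g41220 ranged from 6.38 to 11.1 TPM in wild type and from 2.83 to 3.42 TPM in mutant grains, without overlap, at -0.66 ± 0.20 (log2 difference, SE; limma adjusted p = 0.164). LOC_Os09g20010 had a log2 difference of -0.48 (limma adjusted p = 0.382), which shrank to -0.23 when wild type replicate 1 was left out. LOC_Os03g20340 was at 0.38 (limma adjusted p = 0.515), at 0.11 without wild type replicate 3, and passed at 0.92 with library weights (0.0241; range over 15 alternatives 0.0241 to 0.834). LOC_Os07g48790 was not tested, at 0.31 to 0.60 TPM in the wild type and at most 0.15 in the mutant.

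Other rice genes named for floury or opaque endosperm, or studied for such a phenotype, numbered 22, all tested. Of these 0 rose and 0 fell by limma over all genes, where 3.76% of all tested rows did, and 2 had an unadjusted p under 0.05, where 17.3% of all tested rows did. The median log2 difference was 0.09, with 13 above 0 and 9 below, against -0.01 for all tested rows. With TPM not rescaled the median was -0.18, against -0.43 for all tested rows. Those with the smallest p were 2 endosperm transcription factor genes that activate starch and storage protein genes, NAC20 (LOC_Os01g01470) at 1.29 ± 0.28 (SE; limma adjusted p = 0.0628) and NAC26 (LOC_Os01g29840) at 1.38 ± 0.37 (0.116), and the phospholipase-like gene FSE1 (LOC_Os08g01920) at 1.09 ± 0.47 (0.305). FSE1 was at 0.62 without wild type replicate 1 and passed with library weights (limma adjusted p = 0.0193; range over 15 alternatives 0.0193 to 0.647). NAC26 passed when wild type replicate 2 was left out (limma adjusted p = 0.0288; range over 15 alternatives 0.00430 to 0.405).

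**Figure D5:**
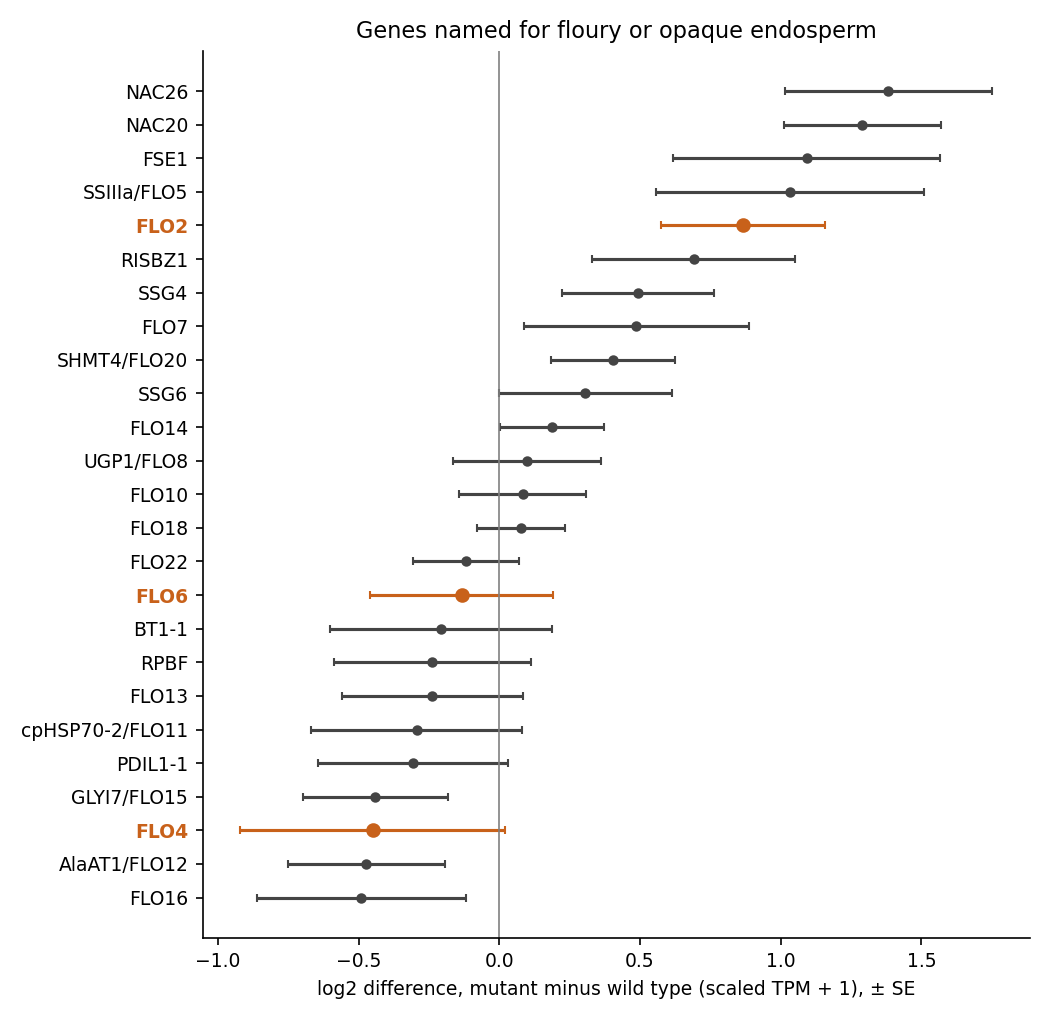
Log2 difference, mutant minus wild type (x axis), of FLO2, FLO4 and FLO6 (orange) and 22 other genes (grey), ordered by value. The 22 are named for floury or opaque endosperm, or were studied for such a phenotype. Points are fitted values and whiskers are SE. Values run from -0.49 to 1.38, with FLO2 at 0.87, FLO6 at -0.13 and FLO4 at -0.45.

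Starch and storage protein genes, whose transcripts are lower in rice without FLO2, gave 0 calls in either direction by limma: 0 of 22 tested starch synthesis genes and 0 of 9 storage protein genes passed, with 4 and 1 at an unadjusted p under 0.05. Over all tested rows these shares were 3.76% and 17.3%. The starch list had a median log2 difference of 0.05, or -0.47 with TPM not rescaled, and the storage list one of 1.43, or 0.74 without wild type replicate 1. Over all tested rows the median was -0.01, or -0.43 with TPM not rescaled. Members with the smallest p were the branching enzyme gene BEIIa (LOC_Os04g33460) at 1.26 (limma adjusted p = 0.0638), the amylose synthesis gene GBSSI (LOC_Os06g04200) at 2.46 (0.0821) and AGPL1 (LOC_Os05g50380), for a large subunit of ADP-glucose pyrophosphorylase, at 0.97 (0.174). BEIIa passed when wild type replicate 2 was left out (limma adjusted p = 0.0190; range over 15 alternatives 0.00269 to 0.315). Among storage proteins, the glutelin genes GluB2 (LOC_Os02g15150) and GluB4 (LOC_Os02g16830) were at 1.096 and 2.62 (limma adjusted p = 0.270 and 0.389), or 0.67 and 0.98 without wild type replicate 1; glutelin copies may share reads, so these values are uncertain.

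The described genes nearest to each member were found among about 5030 rows with a mean of at least 10 TPM, by the root mean square difference of centred log2 values over the 6 libraries. For FLO2 they were LOC_Os10g36760, a probable serine protease, at 0.07, PEPKR2 at 0.09 and LOC_Os04g41470, a probable E3 ubiquitin ligase, at 0.09, where the median gene was at 0.65. As deposited, LOC_Os10g36760 had 23.0, 23.1 and 23.3 TPM in the wild type and 26.4, 25.4 and 33.7 in the mutant. Its even wild type levels, like those of FLO2, follow from the choice by profile. For FLO4 they were LOC_Os10g22039, for a mitochondrial import subunit of the TIM22 family, LOC_Os01g66180, for cytochrome c, and GLYI7 (LOC_Os05g14194, known as FLO15), for a lactoylglutathione lyase, at 0.11 to 0.12, where the median gene was at 0.47. GLYI7, whose loss also gives floury grains, had 93.2, 39.3 and 38.8 TPM in the wild type and 18.9, 25.4 and 38.9 in the mutant. For FLO6 they were LOC_Os03g14890, for a mitochondrial import subunit of the TIM21 family, LOC_Os02g03100, for a sorbitol-6-phosphate dehydrogenase, and LOC_Os01g73550, for a mitochondrial processing peptidase subunit, at 0.08 to 0.10, where the median gene was at 0.44. All 6 of the FLO4 and FLO6 neighbours were highest in wild type replicate 1, the library that stood apart, as FLO4 and FLO6 were. They were chosen for profiles close to those of FLO4 and FLO6, so this likeness follows from the choice.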

How the data were processed

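The deposited table holds TPM with 2 decimals, although its name speaks of counts; means that the authors added match those recomputed here (0 rows off by over 0.0001), and 0 further columns held per-sample values. Tools named, without role or order, per the submitters' processing notes are DESeq2 1.12.4, RSEM, Bowtie2, StringTie and HISAT2 2.1.0; the build they name, mm10, is a mouse build, so the rice build is not given in the sources used here. Mutant columns are named sg31 to sg33 and were matched to the sg34 libraries by replicate number. TPM keep no depth, so no counting intervals are given. No 2 libraries were close to identical (correlation across genes at most 0.969).

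The 16917 rows that reached 1 TPM in 3 or more libraries were tested as log2(TPM + 1) after division by unweighted trimmed mean of M values factors (30% of M and 5% of A trimmed), with limma 3.58.1 in R 4.3.3, a trend of variance with mean, and Benjamini-Hochberg adjustment over all tested rows at 0.05. A fold on this scale understates changes of low genes. The code was tested on simulated data. Fits without a library kept the same rows. The members and lists were chosen with earlier results of these data known. Lists can share genes: SSIIIa (FLO5) is on the floury and starch lists, and AlaAT1 (FLO12) on the floury and pyruvate lists. Genes are named if called, if among the 3 smallest p of a list (2 for storage proteins), or as relatives or nearest profiles of a member. PUL is not analysed here, and the prolamin locus LOC_Os03g55730 was dropped because its description contradicted the name. Replicate numbers were not used to pair the libraries in the main fit. Chromosomes are from RefSeq; no sequence was used.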

Additional observations from a re-analysis of the deposited data

How the results depend on the processing

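With 3 libraries per line and no depth in the values, the counting error of the low gene FLO6 is unknown. Alternatives for genes other than the members were chosen after seeing the data. Libraries of one number did not deviate together (correlations of -0.541, 0.0032 and -0.368), and whether they share a batch is not known. With the replicate block the log2 differences were 0.87 for FLO2, -0.45 for FLO4 and -0.13 for FLO6, with 131 rows called higher, 123 lower and 1 pyruvate gene; adjusted p was 0.0630 for LOC_Os02g15660, 0.153 for LOC_Os02g56310 and 0.151 for LSF1 LOC_Os08g29160. With library weights FLO2 passed (0.79), FLO4 turned to 0.10 and FLO6 to 0.12, and 2137 rows were higher and 1779 lower, with 6 floury, 4 starch, 8 pyruvate and 2 storage genes called; the cause was not tested. Leaving out each library gave 0.63 to 1.09 for FLO2, -0.75 to -0.21 for FLO4 and -0.32 to 0.15 for FLO6, 165 to 364 rows higher and 155 to 370 lower, and 0 to 1 floury, 0 to 1 starch, 1 to 2 pyruvate and 0 storage genes. FLO6 turned to 0.10 without wild type replicate 1 and to 0.15 without mutant replicate 1. Without rescaling 186 rows were higher and 301 lower (320 and 316 as reported), and 1 pyruvate gene passed, as with a pseudocount of 5 or no filter. With at least 5 TPM in 3 libraries 129 were higher and 140 lower, from fewer rows, 1 pyruvate gene passed, and FLO6 was not tested. With no variance trend 1 floury gene (NAC20) and 1 starch gene (GBSSI) passed. Signs turned for ISA1 (-0.21), LOC_Os02g48620 (-0.45), LOC_Os07g34640 (-0.012) and LOC_Os03g20340 (-0.14) without rescaling, and for LOC_Os07g34640 (-0.015) and GBP LOC_Os02g04330 (0.099) with library weights. Leaving out single libraries gave -0.20 to 0.30 for LOC_Os02g48620, -0.0076 to 0.70 for LOC_Os07g34640 and -0.40 to 0.056 for GBP. The 3 ratios kept their direction in all 9 alternatives each.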

Other observations

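FLO6 is 1 of several grain genes with a carbohydrate-binding module of its kind. A list, made after values had been seen, took the 14 other rows annotated with module 48 or with the glycogen recognition site of AMP-activated protein kinase. Of its 13 tested members 1 rose, 0 fell and 4 had an unadjusted limma p under 0.05. Over all tested rows 3.76% were called and 17.3% had such a p. The median log2 difference of the list was 0.19, or -0.32 with TPM not rescaled, against -0.01 and -0.43 for all tested rows. The gene that rose was LOC_Os08g29160, described as the phosphoglucan phosphatase-like protein LSF1, which in Arabidopsis is needed for normal starch breakdown. It stood at 36.8, 16.1 and 20.02 TPM in replicates 1 to 3 of the wild type and at 30.3, 32.7 and 41.9 TPM in those of the mutant. The deposited values overlapped, while the scaled ones, 19.2 ± 2.91 in the wild type and 41.6 ± 2.03 in the mutant (SD, n = 3), did not. Its log2 difference was 1.09 ± 0.18 (SE) with limma adjusted p = 0.0232. The call was lost in 7 of 15 alternatives: among them with TPM not rescaled (adjusted p = 0.387) and in 5 of the 6 fits without a library (0.0583 to 0.141); without wild type replicate 1 it was kept (0.0169).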
